A study of Mus musculus with 12 samples.

Results

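A set of 207 genes was followed whose expression was lower at day 10 than at day 5 in Cherry+ lung cells, while the mean of Cherry- lung cells moved little between the days. The members were chosen by their deposited log2 values, from all 32958 rows of the table. Of these rows, 15842 passed a filter on low values (at least 3 libraries at 10 or more on the linear scale), and all 207 members were among them. The rule asked for a day 10 mean at least 2.38-fold under the day 5 mean in Cherry+ cells, with every day 10 Cherry+ library below every day 5 Cherry+ library. It also asked for an absolute change under 0.5 log2 units in Cherry- cells and a log2 mean of at least 7 in 1 of the groups. At day 5 the Cherry+ mean had to be less than 6.73-fold below and less than 3.36-fold above the Cherry- mean. All 4 group means were therefore used in the choice, and every difference between groups given below describes the members and is no evidence for them.

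The libraries were made from lungs of female Balb/c mice, aged 6 to 10 weeks, that had received 4T1 cells of a labelling line through a vein. 4T1 is a mouse mammary carcinoma line from the same strain that colonises the lung. CD45-Ter119- cells were sorted at day 5 and at day 10 and divided by Cherry into 4 groups of 3 libraries, and every group, Cherry- included, came from lungs that had received 4T1 cells. Whether 4T1 cells, which also lack CD45, were removed in the sort is not stated in the labels. Lungs without tumour cells were not analysed here, and no label says how many animals stand behind a library, so p-values measure the spread between libraries, which may be partly technical.

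As background, a labelling line of this kind secretes a red fluorescent protein that enters nearby cells, so that labelled cells mark the surroundings of the tumour cells, the niche of the metastasis. The labels do not state what Cherry marks. The CD45-Ter119- part of the lung holds endothelial, epithelial and mesenchymal cells, since leukocytes carry CD45 and red cells carry Ter119. Early niches are small groups of cells around single tumour cells, and later ones surround growing nodules. In such bulk samples, fewer cells of a type and less RNA per cell cannot be told apart.

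The rows carry UCSC known-gene identifiers, of which 0 matched the gene name tables used here, and no name was guessed. What the members encode, whether they belong to known pathways, and whether the sorted cells carried the markers of their gate were not analysed here, and for the same reason no sequence is printed. The 2 identifiers printed below were picked by rule, as the members with the lowest Cherry+ difference between the days among those above and those below Cherry- cells at day 5.

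The members were well expressed genes in unlabelled lung cells. Their median level, on the deposited log2 scale, was 10.29, 10.59 and 10.56 in the 3 day 5 Cherry- libraries, and 10.34, 10.21 and 10.37 in the 3 day 10 Cherry- libraries. The median of all genes tested lay near 8.8 in the same libraries, so the members stood above the typical gene there. The rule's lower limit of 7 on the highest group mean favours this, since the genes tested had only to pass the filter. In day 5 Cherry+ libraries the members' median was 9.02, 8.94 and 9.78, and in day 10 Cherry+ libraries it was 8.42, 7.65 and 7.18. By day 10 the members had thus passed from above to below the typical gene in Cherry+ cells, where the median of all genes tested was 8.77, 8.74 and 8.70. The day 10 Cherry+ libraries were spread more widely than the day 5 ones, and all 3 lay below all 3 of day 5.

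**Figure D1:**
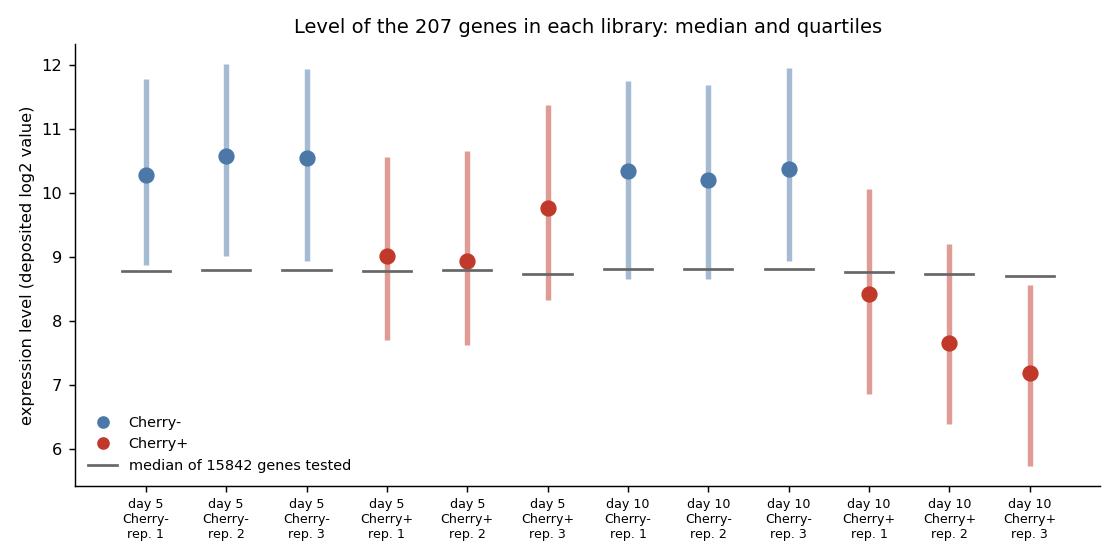
Level of the 207 genes on the deposited log2 scale (vertical axis) in each of the 12 libraries (horizontal axis); points are medians over the genes, bars run from the lower to the upper quartile, and grey lines are medians of the 15842 genes tested. The Cherry- medians lie between 10.21 and 10.59, and the Cherry+ medians between 8.94 and 9.78 at day 5 and between 7.18 and 8.42 at day 10.

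The difference between the days in Cherry+ cells had a median of -1.502 log2 units over the members, which is 2.83-fold lower, and lay between -2.38 and -1.252. The values were close together, with quartiles of -1.67 and -1.38, so the list holds many moderate differences and few large ones. The median over all genes tested was -0.02. By level of the gene, the median was -1.49 for the 52 members with a mean level under 8, -1.53 for the 73 between 8 and 10, -1.495 for the 57 between 10 and 12 and -1.48 for the 25 at 12 or more. The rule's limit bounds all of these medians from above, so nothing is read from their closeness.

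In limma, fitted to all genes tested, 158 of the 207 members were called lower at day 10 in Cherry+ cells at a Benjamini-Hochberg adjusted p under 0.05, where 3.04% of all genes tested were called so. Day 10 libraries all below the day 5 libraries, which the rule required of every member, were found in 12.1% of all genes tested. Nothing can be read from either count, since the same contrast chose the members. The number called rested on single libraries. When day 10 Cherry+ replicate 2 was left out it was 0 (205 of the members had an unadjusted p under 0.05, in a contrast that the rule had used). It was 74 when replicate 3 of that group was left out, and 66 and 28 when replicates 1 and 3 of the day 5 Cherry+ group were. The number called among all genes tested moved with it, from 481 with all libraries to 0, 198, 162 and 72 in these fits in turn. With the replicate number as a block it was 61, against 0.884% of all genes tested. Leaving out Cherry- libraries, which enter only through the estimate of the spread, gave 109, 95 and 93 for day 5 replicates 1 to 3 and 91, 94 and 122 for day 10 replicates 1 to 3, against 1.47% to 2.30% of all genes tested.

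The values close to each limit show how the list was bounded. The member nearest the limit on the Cherry+ difference lay at -1.252, and the nearest row outside it, with every other condition met, at -1.248. At the lower limit of the day 5 difference the last member lay at a log2 difference of -2.749 and the next row at -2.751, and at the upper limit the values were 1.70 and 1.96. For the Cherry- change they were 0.4997 and 0.5035, for the highest group mean 7.06 and 6.999, and for the gap between the Cherry+ libraries of the days 0.018 and -0.0046. Apart from the upper limit of the day 5 difference, the members and the rows outside met closely at each limit.

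The members fell into 3 classes by where they stood at day 5, a division made after the values had been seen. In 95 members the day 5 Cherry+ mean was at least 1 log2 unit under the Cherry- mean, in 62 it was lower by less than 1, and in 50 it was higher. The first class was crowded against the edge of the rule, with 68 members at -2 or lower, and a further 32 rows outside the list failed only that limit. Those 32 rows had a median Cherry+ difference between the days of -1.48, and a median Cherry- difference of -0.18.

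In the class already low at day 5, the median level was 10.85, 11.21 and 11.12 in day 5 Cherry- libraries against 8.72, 8.53 and 9.46 in day 5 Cherry+ libraries. At day 10 it was 11.03, 10.82 and 11.26 in Cherry- against 7.92, 7.20 and 6.95 in Cherry+ libraries. The Cherry- and Cherry+ medians did not overlap at either day, and the difference widened from a median of -2.44 to -3.83 log2 units. The class definition and the rule favour both. These genes were thus low in Cherry+ cells at day 5 and lower still at day 10.

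In the class lower by less than 1, the medians were 9.67, 9.65 and 9.76 in day 5 Cherry- and 8.85, 9.17 and 9.78 in day 5 Cherry+ libraries, so the groups overlapped at day 5. At day 10 the medians were 9.20, 9.26 and 9.62 in Cherry- and 8.47, 7.62 and 6.94 in Cherry+ libraries, with no overlap. Its median Cherry difference went from -0.53 to -1.72 log2 units. At day 5 all 3 Cherry+ libraries lay below all 3 Cherry- libraries in 21 of these 62 members (33.9%), against 25.5% of all genes tested. At day 10 they did so in 59 of the 62, against 28.1% of all genes tested. The class was defined by a lower day 5 Cherry+ mean and the rule by the Cherry+ decline, so the choice favours both counts.

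In the class above Cherry- cells at day 5, the medians were 10.10, 10.04 and 10.20 in day 5 Cherry- and 10.65, 10.70 and 11.43 in day 5 Cherry+ libraries. These medians did not overlap, which the class definition favours. Gene by gene, all 3 Cherry+ libraries lay above all 3 Cherry- libraries in 26 of the 50, against 23.9% of all genes tested. At day 5 limma called 9 of the 50 higher (18%), against 18.9% of all genes tested. At day 10 the medians were 9.51, 9.87 and 10.07 in Cherry- and 10.24, 9.30 and 8.42 in Cherry+ libraries. Here the groups overlapped, because day 10 Cherry+ replicate 1 lay above all 3 Cherry- libraries and replicates 2 and 3 below them. The median Cherry difference of the class went from 0.52 to -0.74. A higher level in Cherry+ cells was no longer seen in the class median at day 10, and whether the level was below that of Cherry- cells depended on the library.

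**Figure D2:**
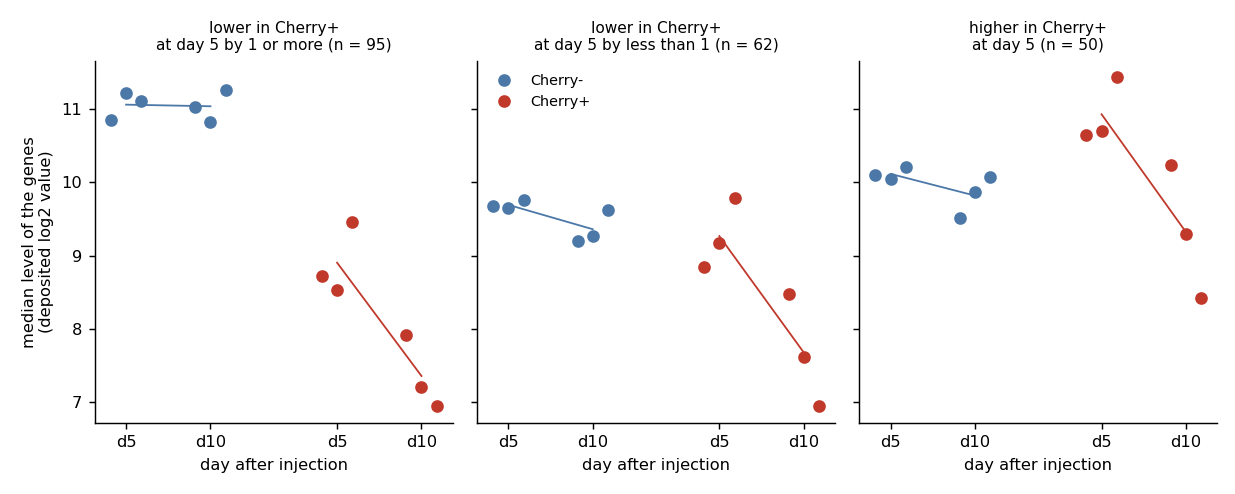
Median level on the deposited log2 scale (vertical axis) of the 3 classes of members in each library at day 5 (d5) and day 10 (d10), with Cherry- libraries in blue and Cherry+ libraries in red; each point is 1 library and lines join the means of the 3 points. Cherry+ points are lower at day 10 in every class, from a day 5 position at least 1 log2 unit below Cherry- (95 genes), less than 1 below it (62 genes) or above it (50 genes).

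Across the members the Cherry difference had a median of -0.88 at day 5 and -2.17 at day 10. At day 5, limma called 101 members lower in Cherry+ cells, against 19.4% of all genes tested, and 9 higher, against 18.9%. At day 10 it called 168 members lower, against 21.5% of all genes tested. By day 10, 204 of 207 members had a Cherry+ mean below the Cherry- mean, and 204 had their lowest group mean in day 10 Cherry+ cells. All of these counts use group means that the rule used, and the day 5 Cherry+ libraries enter both the day 5 comparison and the comparison of the days.

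Seen library by library, all 3 day 5 Cherry+ libraries lay below all 3 Cherry- libraries for 115 members, against 25.5% of all genes tested, and above them for 26, against 23.9%. At day 10 all 3 Cherry+ libraries lay below all 3 Cherry- libraries for 164 members, against 28.1% of all genes tested. For those 164 members the day 10 Cherry+ libraries were also below every one of the other 9 libraries, an order found in 7.29% of all genes tested. Of the 164, 95 belonged to the class already low at day 5, 59 to the class lower by less than 1 at day 5 and 10 to the class above Cherry- cells at day 5.

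**Figure D3:**
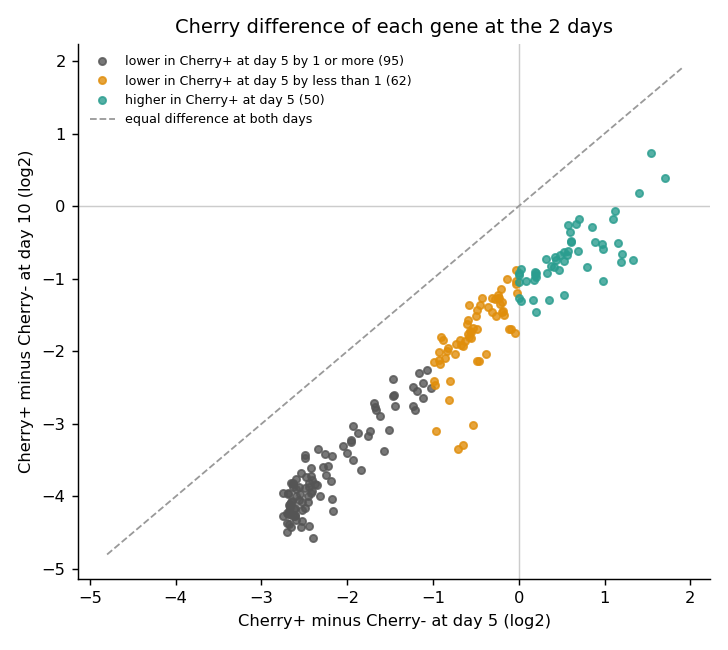
Cherry+ minus Cherry- difference in log2 units at day 5 (horizontal axis) and day 10 (vertical axis) for each of the 207 members, coloured by class; the dashed line marks equal differences. Every point lies under the line, as the rule's limits on the Cherry+ and Cherry- changes require. The day 10 minus day 5 values run from -2.64 to -0.79, and the points crowd at the lower limit of the rule.

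The difference between the day 10 and day 5 Cherry differences had a median of -1.27 log2 units over the members. It lay between -2.64 and -0.79, against a median of -0.05 for all genes tested. The rule's limits on the Cherry+ and Cherry- changes require a negative value in every member. Its sign was thus fixed by the choice, and the gap to all genes tested was favoured by it. In limma, 0 of the 207 members and 0% of all genes tested passed this interaction test. The smallest adjusted p among the members was 0.192. At an unadjusted p under 0.05, 160 members were lower, where 7.20% of all genes tested were, a count that the same limits favour. A change in Cherry+ cells that differs from that in Cherry- cells was thus not shown for any single member by the adjusted test with all libraries. Cherry- and Cherry+ libraries with the same number share a letter in their source names within each day, whose meaning the labels do not give. With these pairs as blocks the adjusted test also called 0 members and 0 of all genes tested. An unadjusted p under 0.05 was found for 145 members, and nothing is read from that, since the rule used the same group means. Without blocks, the number of members past the adjusted test was 47 when day 10 Cherry+ replicate 1 was left out, against 1.02% of all genes tested. It was 2, whose identifiers are not printed, when day 5 Cherry+ replicate 3 was left out, against 0.675%.

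In Cherry- cells most members had a slightly lower mean at day 10. The members share the same libraries, so their number is no test of a change. The day 10 minus day 5 difference in Cherry- cells had a median of -0.26 log2 units, and it was below 0 in 168 of 207 members and above 0 in 39, within the 0.5 that the rule allowed on either side. All genes tested had a median of 0.00. In limma, 0 of the members and 0% of all genes tested were called lower in Cherry- cells, and 0 members and 1.79% of all genes tested were so at an unadjusted p under 0.05, a count that the limit on the size of the change restricts. All 3 day 10 Cherry- libraries lay below all 3 day 5 Cherry- libraries for 40 members, against 8.85% of all genes tested. These 40 comprised 23 of the 62 members lower by less than 1 at day 5, 10 of the 50 above Cherry- cells at day 5 and 7 of the 95 already low at day 5.

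A further 98 rows met every condition but the limit on Cherry- cells. Of these rows, 93 had a lower mean at day 10 in Cherry- cells, with a median difference of -0.62 over the 98, and their median Cherry+ difference was -1.63. On both sides of that limit, most rows had a lower Cherry- mean at day 10. Inside the limit the rule itself keeps the Cherry- change smaller than the Cherry+ difference. Outside it the median Cherry- difference was also the smaller in size, which the rule's limit on the Cherry+ difference favours.

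The rule was also applied to part of the libraries and its genes read in the rest. One day 5 and 1 day 10 Cherry+ library were taken out, genes were chosen by the same rule on the other 10 libraries, and the difference between the 2 libraries taken out was read, for all 9 pairs, which share libraries with each other. The median difference over the genes chosen was below 0 in all 9 pairs, from -2.53 to -0.14, while the median of all genes tested lay between -0.05 and 0.00. The differences in the libraries taken out split by day 10 replicate. With day 10 replicate 3 taken out they were -1.81, -1.59 and -2.53, for day 5 replicates 1, 2 and 3 in turn. The rule chose 146, 150 and 29 genes for these pairs, so the largest value rests on few genes. With day 10 replicate 2 taken out the differences were -1.07, -1.05 and -2.001, over 333, 341 and 92 genes.

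With day 10 replicate 1 taken out, and 637, 674 and 258 genes chosen, the differences were -0.14, -0.18 and -1.08 in the same order. The first and second of these are close to those of all genes tested in the same libraries, -0.05 and -0.02. Of the 637 and 674 genes chosen without these pairs, 62.8% and 66.3% were lower at day 10 in the libraries taken out, against 54.4% and 51.7% of all genes tested. In the other 7 pairs, between 96.6% and 100% of the genes chosen were lower, against 50.3% to 54.4% of all genes tested. The genes chosen for each pair had lower medians in day 10 Cherry+ replicates 2 and 3 against any day 5 library. In replicate 1 they were clearly lower only against day 5 replicate 3. The rule was set with earlier results of these data known, so the libraries taken out are not independent of it. Each value sets 1 library against 1 over a different gene list. The values describe these libraries and are no evidence for a change between the days.

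The same was done with Cherry- libraries, as an alternative added after the data were seen. Genes chosen as flat in 4 Cherry- libraries were read in the libraries taken out. Their median differences were -0.42 and -0.41 when day 5 replicate 1 was taken out with day 10 replicate 1 or 2. The values were -0.41 and -0.50 for day 5 replicate 2, and -0.45 and -0.53 for day 5 replicate 3. When day 10 replicate 3 was taken out they were 0.058, -0.069 and -0.075. All genes tested had medians between -0.01 and 0.04 throughout. The genes chosen thus had lower medians when day 10 Cherry- replicate 1 or 2 was taken out, and values close to 0 for replicate 3. Each value sets 1 library against 1 and turned on the day 10 replicate. No change between the days in Cherry- cells is read from them. For replicate 2 the Cherry- medians were smaller in size than the Cherry+ medians with the same numbers left out. For replicate 1 they were larger in size with day 5 replicates 1 and 2 left out (-0.42 and -0.41 against -0.14 and -0.18). They were smaller with day 5 replicate 3 left out (-0.45 against -1.08). The Cherry- and Cherry+ medians come from different gene lists, with 211 and 218 against 637 and 674 genes for day 5 replicates 1 and 2. Their sizes therefore do not compare the changes of the same genes.

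**Figure D4:**
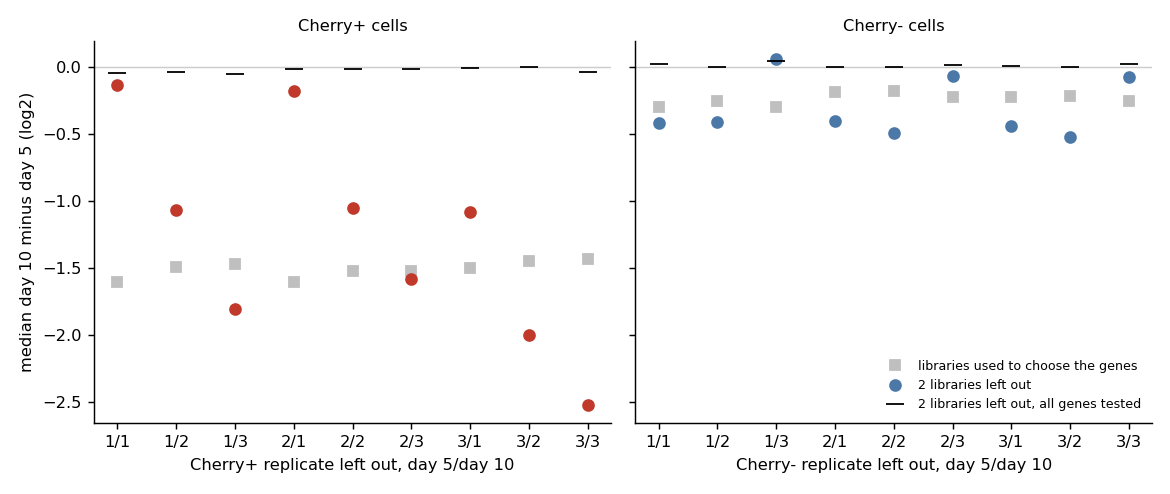
Median day 10 minus day 5 difference in log2 units (vertical axis) of genes chosen by the rule without 1 library of each day, for the 9 pairs left out (horizontal axis, day 5 replicate then day 10 replicate), in Cherry+ cells (left) and Cherry- cells (right). Squares are libraries used for the choice, points the 2 libraries left out, and dashes all genes tested in the latter. In Cherry+ cells the points run from -2.53 (29 genes) to -0.14 (637 genes), and in Cherry- cells from -0.53 to 0.058.

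Within a group the members moved together from library to library. At day 5, Cherry+ replicate 3 was above its group mean for 200 of 207 members, by a median of 0.52 log2 units, whereas 53.0% of all genes tested were above. At day 10, Cherry+ replicate 1 was above its group mean for 200 members, by a median of 0.68, and replicate 3 was above it for 7, with a median of -0.62. The order of replicate 1 over 2 over 3 at day 10 was found in 173 members, or 83.6%, and in 28.2% of all genes tested. The rule used these Cherry+ libraries, so the pattern describes the members and is not independent of their choice.

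The spread within groups was correspondingly wide in Cherry+ cells. The median SD of a member was 0.48 among day 5 Cherry+ libraries and 0.68 among those of day 10, against 0.26 and 0.25 for all genes tested (n = 3 libraries a group). Among Cherry- libraries it was 0.18 for members and for all genes tested at day 5, and 0.25 against 0.16 at day 10. A set picked for a difference between the days in Cherry+ cells was therefore also a set that varied among Cherry+ libraries of 1 day.

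The deviations in Cherry- libraries, of which the rule used only the group means, differed in part between the classes. Day 10 Cherry- replicate 3 was above its group mean for 182 of 207 members, by a median of 0.23 log2 units, where 49.4% of all genes tested were above, and this held in each class (83 of 95, 55 of 62 and 44 of 50). Day 10 Cherry- replicate 1 was above its mean for 58 of the 95 members already low at day 5, but for 7 of the 62 and 4 of the 50 in the other classes. The share of all genes tested was 50.2%. Day 5 Cherry- replicate 2 was above its mean for 83 of the 95, 30 of the 62 and 19 of the 50, and for 52.8% of all genes tested. The 3 classes thus differed in how many members were high in some Cherry- libraries, a description with no test. Some of these counts lie near the share of all genes tested, and genes that share a library are not independent.

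**Figure D5:**
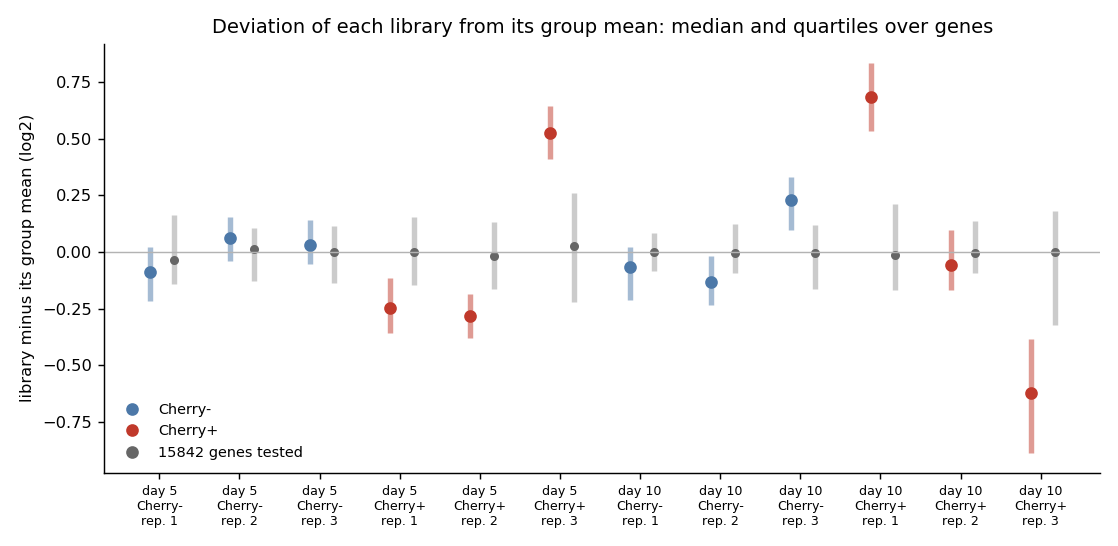
Deviation of each library from its group mean in log2 units (vertical axis), as the median and quartiles over the 207 members (coloured) and over the 15842 genes tested (grey), for the 12 libraries (horizontal axis). Day 5 Cherry+ replicate 3 (0.52) and day 10 Cherry+ replicate 1 (0.68) lie highest and day 10 Cherry+ replicate 3 (-0.62) lowest for the members, and the grey medians lie within 0.04 of 0.

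Other genes showed how far each Cherry+ library stood from Cherry- cells. Over 1493 genes that are no members and were lower in Cherry+ cells at both days, by at least 1 log2 unit with no overlap, the median distance of a library from the Cherry- mean of its day was -1.88, -1.99 and -1.71 in day 5 replicates 1 to 3. At day 10 it was -1.82, -1.84 and -2.48. The corresponding distances of the members were -1.14, -1.07 and -0.36 at day 5 and -1.46, -2.12 and -3.02 at day 10. Day 5 replicate 3 was the nearest and day 10 replicate 3 the farthest library by both measures, but the members' range over the 6 libraries was wider.

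Over 609 genes that were higher in Cherry+ cells at both days by the same conditions, the distances were 2.22, 2.15 and 1.21 at day 5 and 1.38, 1.53 and 1.62 at day 10. Within each day the members were highest in the library with the smallest of these distances. The part of such library differences in the members' difference between the days was not tested. Without day 5 Cherry- replicate 1 and replicate 3 of both Cherry+ groups, which an earlier analysis of these data had found to stand apart, the median Cherry+ difference of the 207 members was -0.93, and the rule chose 25 genes.

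The member with the lowest Cherry+ difference among those above Cherry- cells at day 5 was uc011zqy.2. Its level was 13.17, 12.99 and 13.61 in day 5 Cherry- and 13.77, 13.93 and 15.01 in day 5 Cherry+ libraries. At day 10 it was 12.79, 13.00 and 13.22 in Cherry- and 13.24, 11.97 and 10.72 in Cherry+ libraries. At day 5 every Cherry+ library lay above every Cherry- library, and at day 10 replicate 1 still lay just above them while replicates 2 and 3 lay below, so the groups overlapped.

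The difference between the days in Cherry+ cells was -2.26 ± 0.51 (SE) for uc011zqy.2, or 4.80-fold lower, from 14.24 ± 0.68 to 11.98 ± 1.26 (SD, n = 3, adjusted p = 0.0357 in limma). That p lay between 0.00321 and 0.224 over 20 alternatives and passed the threshold in 4 of them. It missed the threshold whichever single library was left out, other than day 10 Cherry+ replicate 1. The Cherry difference was 0.98 at day 5 (adjusted p = 0.155) and -1.03 at day 10 (adjusted p = 0.135), neither past the threshold with all libraries. The day 10 value was -1.66 when that library was left out (adjusted p = 0.00868 in limma, range 0.00868 to 0.491). The day 5 value passed when day 10 Cherry+ replicate 3 was left out, with an adjusted p of 0.0493 in limma (range 0.0493 to 0.396). The Cherry- difference between the days was -0.25 ± 0.51 (SE).

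The member with the lowest Cherry+ difference of all was uc008gfl.1, which was below Cherry- cells at day 5. Its level was 8.23, 8.98 and 7.72 in day 5 Cherry- and 6.29, 6.03 and 5.40 in day 5 Cherry+ libraries. At day 10 it was 8.33, 8.34 and 7.64 in Cherry- and 3.62, 3.52 and 3.44 in Cherry+ libraries. No 2 of the 4 groups overlapped except the 2 Cherry- groups. Unlike most members, it was lowest in day 5 Cherry+ replicate 3, and its day 10 Cherry+ libraries lay close together.

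For uc008gfl.1 the Cherry+ difference between the days was -2.38 ± 0.34 (SE), or 5.20-fold lower, from 5.91 ± 0.46 to 3.53 ± 0.09 (SD, n = 3, adjusted p = 0.0159 in limma). The p passed in 17 of 20 alternatives, with a range of 0.00467 to 0.198, and missed the threshold without day 10 Cherry+ replicate 2 (0.0914). The Cherry difference was -2.40 at day 5 and -4.57 at day 10, with adjusted p-values of 0.000259 and 2.00e-06, and both passed in all 20 alternatives. Its difference between these differences was -2.17 ± 0.48 (SE, adjusted p = 0.195, range 0.0398 to 0.478). Its day 10 Cherry+ level is close to the filter on low values.

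The members were spread through the table. The identifier series uc007, uc008 and uc009 held 68, 68 and 66 of them, which is 32.9%, 32.9% and 31.9%, against 34.6%, 33.2% and 26.6% of all genes tested. There were 8 pairs of members within 2 rows of each other, involving 15 members. Whether such neighbours overlap in the genome and share reads was not tested. No member had values equal to those of another row.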

How the data were processed

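The authors deposited 1 table of log2 values with 12 columns, 1 for each library. Bowtie2, RSEM (1.2.29), the mm10 build and DESeq2 (1.12.4) appear in the submitters' processing notes. Their roles and order, and the transform behind the log2 values, are not given in the sources used here. Counts were not used, so sequencing depth is unknown and there are no counting intervals.

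Columns were matched to samples by source name and grouped by title. Genes were kept when at least 3 libraries reached 10 on the linear scale (3.32 in log2). All 15842 were fitted with limma 3.58.1 in R 4.3.3, 4 groups together, with a mean-dependent prior and 8 residual degrees of freedom. Tests were two-sided, with Benjamini-Hochberg adjustment within each contrast. Libraries were also left out, rescaled, weighted, blocked by replicate number (within a day for the Cherry differences and the interaction, across days for the comparison of days) and fitted by group pair. Figures used matplotlib 3.10.9.

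The members, classes, named identifiers and alternatives were chosen with earlier results of these data known. No gene list or marker was tested, for want of names. The identifiers printed are the members with the largest decline in Cherry+ cells among those above and those below Cherry- cells at day 5.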

Additional observations from a re-analysis of the deposited data

How the results depend on the processing

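The rule chose 123 genes after quantile normalisation and 25 without the 3 libraries that stood apart. Omitting 1 library gave 87 to 519. The lowest counts came from omitting Cherry+ replicate 3 of day 5 (87) or of day 10 (94), the highest from omitting Cherry+ replicate 1 of day 10 (519) or 2 of day 5 (313). It chose 343 genes with a Cherry+ limit of 1, 104 with 1.5, and 90 with a Cherry- limit of 0.25. The median Cherry+ difference of the 207 members was -0.93 without the 3 libraries. Omitting 1 gave -1.83 to -1.21.

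The 158 members called lower in Cherry+ cells by limma stood beside 3.04% of all genes tested. They became 75 without a filter (0.766%), 61 with the replicate block (0.884%) and 98 without the 3 libraries (4.70%). Without the 3 libraries, the share of all genes tested thus rose while the number of members called fell. Omitting 1 library gave 0 to 201, against 0% to 7.89% of all genes tested. The members called became 0 with library quality weights (whose estimation stopped before its set tolerance) and 0 with only the groups compared. Both fits also called 0 of all genes tested. In them 200 and 203 members had an unadjusted p under 0.05, in a contrast that the rule had used. Deviations of libraries sharing a number correlated, across genes, at 0.25, 0.16 and 0.23 between Cherry- and Cherry+ at day 5 and at -0.14, 0.57 and 0.11 at day 10. Between the days they correlated at -0.39, -0.19 and -0.44 in Cherry+ and at -0.16, -0.58 and 0.37 in Cherry- cells. The source names share a letter within a day, and the labels do not say that it marks an animal. The block gave 0 members in the interaction. The interaction gave 7 members without the 3 libraries (3.81% of all genes tested, so the members' share is no higher). Omitting 1 gave 0 to 47. Libraries taken out of the choice gave -2.53 (29 genes) to -0.14 (637 genes) in Cherry+ cells and -0.53 to 0.058 in Cherry- cells.

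The day 10 count of members lower in Cherry+ cells stayed within 1.5 times under all 20 alternatives. So did the day 5 count of members called in either direction. With 1 library left out they were 146 to 193 (day 10) and 95 to 125 (day 5). The shares of all genes tested were then 17.1% to 23.0% (day 10) and 28.8% to 42.8% (day 5). Quantile normalisation moved the day 10 Cherry difference of all genes tested by 0.16, and that of the members to -1.95. The Cherry- difference of uc008gfl.1 ranged from -0.50 to 0.13 with 1 library omitted, never past the threshold. Its sign turned on omitting Cherry- replicate 2 of day 5 (0.13) or 3 of day 10 (0.024). The cause of these shifts was not tested, beyond the fewer libraries or other genes in each fit.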
